A study of Mus musculus with 12 samples.

Results

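Receptors, bridging proteins and a signalling adaptor that let phagocytes recognise and engulf dying cells were followed in nuclear RNA captured from mouse spinal cord after injury. The set holds 8 genes, Axl, Mertk, Tyro3, Gas6, Pros1, Mfge8, Megf10 and Elmo1, matched by symbol in the deposited tables, of 49585 annotated genes. All 8 were found and all 8 had enough counts to be tested. The series compares nuclei captured as microglial from C57BL/6 mice after a sham operation or at 3, 7 and 14 days after spinal cord injury, with 3 libraries in each of the 4 groups. The sham libraries carry the 7-day label and were numbered 2, 3 and 4, the 7-day libraries 1, 3 and 4, and the other groups 1, 2 and 3. Each library pooled the cord of 3 animals, taken over 5 mm on either side of the injury. Nuclei in all groups were selected by an antibody to green fluorescent protein and magnetic beads after a density gradient; the transgene and the promoter that drives it, and the age and sex of the animals, were not given in the sources used here. A nuclear preparation holds little cytoplasmic RNA, and in such bulk samples fewer nuclei of a type and less RNA per nucleus cannot be told apart.

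Tyro3, Axl and Mertk form the TAM family of receptor tyrosine kinases. Their ligands Gas6 and protein S (Pros1) bind phosphatidylserine exposed on dying cells and so tether those cells to the receptor, Gas6 to any of the family and protein S to Tyro3 and Mertk. Microglia and macrophages use this system to clear apoptotic cells and myelin debris and to restrain their own inflammatory signalling. Mfge8 bridges phosphatidylserine to integrins, Megf10 is an engulfment receptor best known from astrocytes, and Elmo1 works with Dock exchange factors to activate the GTPase Rac at the phagocytic cup.

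The windows of 250 bases before the RefSeq transcription start (GRCm38.p6) of the receptors Axl and Mertk, the ligand Pros1 and the adaptor Elmo1 are shown because the changes described below turn on Axl, Pros1 and Elmo1, and on the contrast of Axl with Mertk. Each is printed 5′ to 3′ on the strand of its gene, and capitals mark a GC box (GGGCGG) or an ETS core (AGGAAG) on either strand.
Axl, chr7:25788734-25788983, minus strand: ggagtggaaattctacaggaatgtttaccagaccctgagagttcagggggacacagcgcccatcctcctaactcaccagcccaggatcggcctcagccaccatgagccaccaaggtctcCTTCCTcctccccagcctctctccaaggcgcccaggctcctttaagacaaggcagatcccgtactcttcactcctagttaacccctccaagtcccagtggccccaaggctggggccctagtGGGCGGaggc
Mertk, chr2:128698665-128698914, plus strand: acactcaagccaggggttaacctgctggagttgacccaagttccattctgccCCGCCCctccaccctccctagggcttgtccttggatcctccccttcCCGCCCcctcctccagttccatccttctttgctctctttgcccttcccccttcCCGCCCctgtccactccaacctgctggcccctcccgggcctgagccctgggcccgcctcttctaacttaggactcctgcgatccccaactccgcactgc
Pros1, chr16:62854057-62854306, plus strand: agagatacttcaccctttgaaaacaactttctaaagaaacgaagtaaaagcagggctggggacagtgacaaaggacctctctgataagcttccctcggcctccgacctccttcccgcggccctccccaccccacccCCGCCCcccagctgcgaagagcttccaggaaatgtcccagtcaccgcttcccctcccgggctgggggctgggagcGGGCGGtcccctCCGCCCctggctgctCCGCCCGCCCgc
Elmo1, chr13:20090257-20090506, plus strand: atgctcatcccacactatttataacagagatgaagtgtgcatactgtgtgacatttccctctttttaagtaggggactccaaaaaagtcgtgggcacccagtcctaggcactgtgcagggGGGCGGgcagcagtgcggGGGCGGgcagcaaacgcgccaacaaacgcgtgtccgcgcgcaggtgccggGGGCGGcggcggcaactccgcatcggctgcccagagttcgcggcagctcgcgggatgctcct

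Windows were matched for 7 of the 8 genes, all but Megf10, and the first listed start is shown. Elmo1 has a further listed start, whose window (chr13:20472740-20472989) has 43.6% GC and holds neither a GC box nor an ETS core. The GC content of the windows shown was 60.0% (Axl), 63.6% (Mertk), 64.4% (Pros1) and 61.6% (Elmo1), against a median of 52.4% over 32851 RefSeq windows of the same length. Axl held 1 GC box and 1 ETS core, Mertk 3 GC boxes, Pros1 5, of which the last 2 overlap, and Elmo1 3. A GC box was present in 32.7% of all windows and an ETS core in 29.5%. An AP-1 site (TGANTCA) and a cAMP response element (TGACGTCA), held by 6.75% and 1.55% of all windows on either strand, were not found in the windows shown. Such matches describe the letters only.

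Total counts ran from 4003480 to 10670804 per library, and 18451 genes entered the test. Levels are counts scaled to a common library total by the trimmed mean of M values (CPM), changes are log2 fold changes ± SE, and adjusted p-values come from edgeR's quasi-likelihood test over all 4 groups, adjusted by Benjamini-Hochberg across every gene tested and called below 0.05. With 3 pooled libraries in a group, a p-value measures how far pooled libraries differ, each being an average of 3 animals. All 10 microglial markers, Tmem119, P2ry12 and Csf1r among them, had counts in every library, and their summed CPM lay between 3328 and 6392. Detection alone does not set microglia apart, since all 10 astrocyte, all 10 oligodendrocyte and all 10 neuronal markers also had counts in every library. The neuronal sum was 2927 to 4503 CPM in sham, and the microglial sum of sham replicate 4 was 5307. The sham libraries were unlike each other: the summed CPM of 10 astrocyte markers was 606, 1498 and 5290 in replicates 2, 3 and 4, and that of 10 fibroblast and pericyte markers 57.7, 79.3 and 538. Where leaving out sham replicate 2 or 4 changes a call of the 8 genes or their ratios, the value without it is given beside the result.

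At 3 days Axl was 4.15-fold higher than in sham and Elmo1 2.00-fold and Pros1 1.62-fold lower. Axl remained higher at 7 and 14 days (3.32-fold and 4.83-fold), Elmo1 was 2.03-fold lower at 14 days, and Megf10 was 3.53-fold lower at 7 days. Of the 8 genes, 1 rose and 2 fell at 3 days, where 20.0% of all tested genes were called (10.9% up and 9.17% down). At 7 days 1 rose and 1 fell, where 9.28% were called (4.61% up and 4.67% down), and at 14 days 1 rose and 1 fell, where 9.82% were called (5.02% up and 4.79% down). The 7-day count was 4 without sham replicate 2, and 1 without sham replicate 4 or without 7-day replicate 3. The median log2 change of the 8 genes was -0.13, 0.11 and -0.43 at 3, 7 and 14 days, against -0.03, 0.01 and -0.05 over all tested genes. The 3 comparisons share the sham libraries, and the 8 genes were chosen with earlier results of these data known. In the test of any difference among the 4 groups Axl, Gas6, Pros1, Megf10 and Elmo1 were called, 5 of 8 where 26.4% of all genes were. That test also called Mertk without sham replicate 2 (adjusted p = 0.00405, edgeR) and Mfge8 without sham replicate 4 (0.0332). Without any single 3-day or 14-day library or 7-day replicate 1 the count was 2 or 3.

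**Figure D1:**
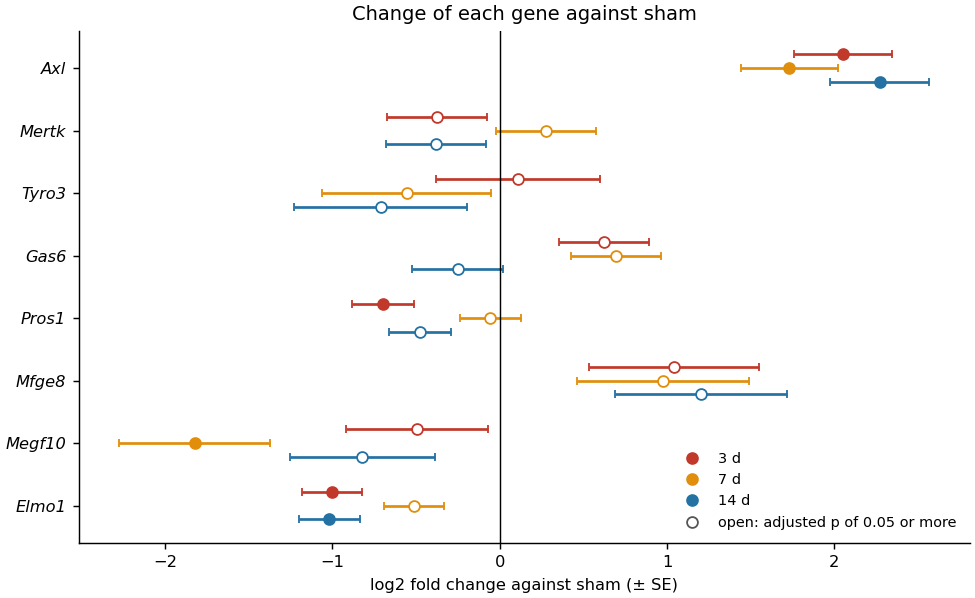
Log2 fold change against sham (horizontal axis) of each of the 8 genes at 3, 7 and 14 days, with bars of 1 SE from edgeR's fit; filled symbols are called and open ones are not. Axl lies right of 0 at each time (2.05, 1.73 and 2.27) and Elmo1 left of it (-1.002, -0.51 and -1.02), while Tyro3 and Mfge8 have no called point.

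Axl, the TAM receptor known to be induced on activated phagocytes, is encoded at chr7:25757273-25788705 on the minus strand (GRCm38; ENSMUSG00000002602). Its level was 56.5, 123 and 143 CPM in sham replicates 2, 3 and 4. It was 354, 389 and 590 CPM at 3 days, 289, 326 and 450 at 7 days and 497, 515 and 538 at 14 days, each in the order of the replicate numbers. Every injured library lay above every sham library, and the 14-day libraries were closest to each other. The injured and sham libraries did not overlap for 34.2% of all tested genes at 3 days, 22.8% after 7 days and 29.7% at 14 days. The rise was 2.05 ± 0.29 at 3 days (adjusted p = 0.000286, edgeR quasi-likelihood test, Benjamini-Hochberg adjusted), 1.73 ± 0.29 at 7 days (0.00285) and 2.27 ± 0.30 at 14 days (0.000307). Between times Axl differed by -0.32 ± 0.28 from 3 to 7 days, 0.54 ± 0.28 from 7 to 14 days and 0.22 ± 0.28 from 3 to 14 days, with none called by that fit.

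Markers of other cells that can carry Axl moved with it in part, and their part in the result was not tested. Of the 9 markers of monocyte-derived macrophages, 6 could be tested. Of these, 3, 2 and 2 rose at 3, 7 and 14 days (10.9%, 4.61% and 5.02% of all tested genes rose), and 1 fell at 14 days (4.79%). Their summed CPM was 127 to 184 in sham, 1170 to 1633 at 3 days, 264 to 613 at 7 days and 710 to 834 at 14 days; F10 had no count in any sham library. The summed CPM of 10 endothelial markers was 40.0 to 155 in sham, 231 to 528 at 3 days, 48.2 to 59.8 at 7 days and 347 to 354 at 14 days. That of the fibroblast and pericyte markers was 57.7 to 538, 294 to 912, 34.1 to 128 and 574 to 697 in the same order. At 7 days the endothelial sum lay inside the sham range, and no library exceeded the sham maximum of the fibroblast sum.

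Mertk, the TAM receptor most used by resting microglia and macrophages, lies at chr2:128698956-128802894 on the plus strand (ENSMUSG00000014361). It was read at 2224, 823 and 852 CPM in sham replicates 2, 3 and 4, so that sham replicate 2 alone stood above the rest of its group. The 3-day libraries held 922, 1135 and 951 CPM, the 7-day libraries 1834, 1681 and 1211, and the 14-day libraries 995, 986 and 1011. All injured libraries fell inside the range that the sham libraries span. The changes against sham were -0.38 ± 0.30, 0.28 ± 0.30 and -0.38 ± 0.30 at 3, 7 and 14 days (adjusted p = 0.402, 0.583 and 0.445, edgeR quasi-likelihood test). Without sham replicate 2 they were 0.23, 0.90 and 0.24, and the 7-day rise was then called (adjusted p = 0.00538, edgeR). The 3 libraries at 7 days were above the 3-day and the 14-day libraries, by 0.65 ± 0.30 and 0.66 ± 0.30, neither called by the fit of all 12 libraries (adjusted p = 0.154 and 0.26, edgeR). Without sham replicate 2 edgeR called both, at 0.67 from 3 to 7 days (adjusted p = 0.0106) and -0.67 from 7 to 14 days (0.0242). Mertk overlaps the antisense gene Gm14011 (106 to 319 counts) and the small nucleolar RNA gene Gm23172 (39 to 222 counts), against 3045 counts of Mertk or more in every library.

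Tyro3, the TAM receptor best known from neurons, was close to the limit of detection, with 5 to 55 counts per library (chr2:119797733-119818104, plus strand). It reached 3.18, 6.63 and 1.4 CPM in sham, 3.42, 3.34 and 5.28 at 3 days, 2.30, 1.94 and 3.34 at 7 days and 2.11, 2.10 and 2.67 at 14 days. The sham range held every injured library, and no difference was detectable at this depth (0.11 ± 0.49, -0.56 ± 0.51 and -0.71 ± 0.52 against sham). Its sign at 3 and at 7 days changed when single libraries were left out.

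**Figure D2:**
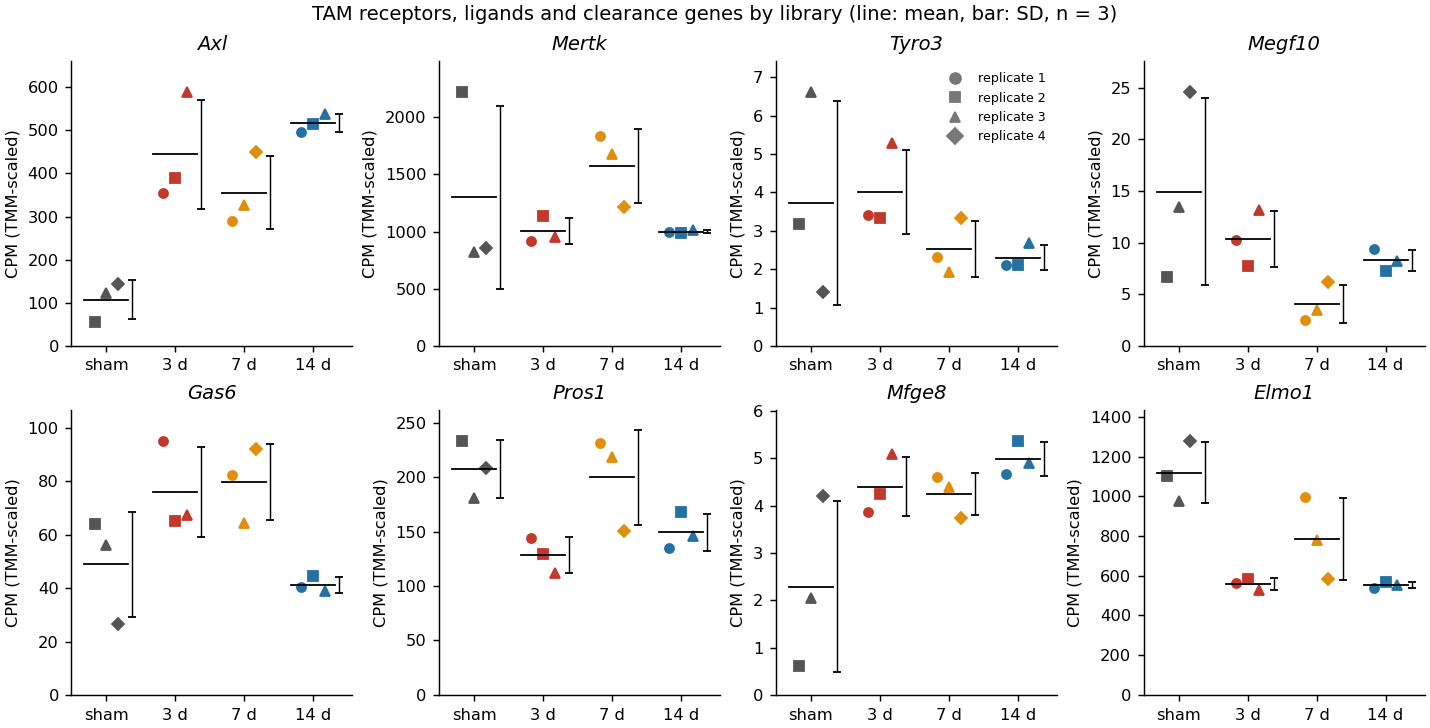
TMM-scaled CPM (vertical axis, linear, from 0) of each of the 8 genes in the 12 libraries by group; symbols give the replicate number, lines the mean and bars the SD of 3 libraries. Axl is above sham in all 9 injured libraries, Elmo1 is below sham in all 3-day and 14-day libraries, and sham replicate 2 stands apart for Mertk at 2224 CPM.

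Per length, in reads scaled to gene length and library total (RPKM), Mertk was the most abundant of the 8 genes in every group, with a median of 204 in sham, 215 at 3 days, 365 after 7 days and 241 at 14 days. Axl ranked after Mertk, Elmo1 and Pros1 in sham, with a median of 25.4 RPKM, and overlapped Gas6 (23.5). It ranked after Mertk alone at 3 and 14 days (77.0 and 108 RPKM), its libraries lying above those of Elmo1 (56.2 and 57.4). At 7 days Elmo1 (72.4) and Axl (61.1) overlapped. Megf10, Mfge8 and Tyro3 were the lowest in every group, with medians from 0.35 to 1.88 RPKM, and Megf10 overlapped Tyro3 in sham and at 7 days and Mfge8 at 3 and 14 days.

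The make-up of the receptor family in each library shifted with injury. Axl formed 2.14%, 11.3% and 12.6% of the summed RPKM of Axl, Mertk and Tyro3 in sham replicates 2, 3 and 4, and 24.8%, 22.7% and 34.7% at 3 days. It formed 11.9%, 14.3% and 24.2% at 7 days and 30.1%, 31.0% and 31.4% at 14 days. The 3-day and 14-day libraries all lay above sham, whereas 7-day replicate 1 fell inside the sham range. Tyro3 never made up more than 0.50%. The log2 ratio of Axl to Mertk RPKM was -3.75 ± 1.53 (SD, n = 3) in sham, -1.42 ± 0.45 at 3 days, -2.37 ± 0.65 after 7 days and -1.16 ± 0.05 at 14 days. It differed among the 4 groups (p = 0.00338, exact permutation test over all 369600 assignments of the libraries; 0.00675 adjusted for the 2 ratios examined). Against sham alone the exact two-sided permutation p was 0.1, 0.2 and 0.1 at 3, 7 and 14 days, where 0.1 is the smallest that 3 against 3 libraries can give. The sizes rest in part on sham replicate 2: the differences from sham were 2.33, 1.39 and 2.59 at those times with it, and 1.45, 0.51 and 1.71 without it.

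**Figure D3:**
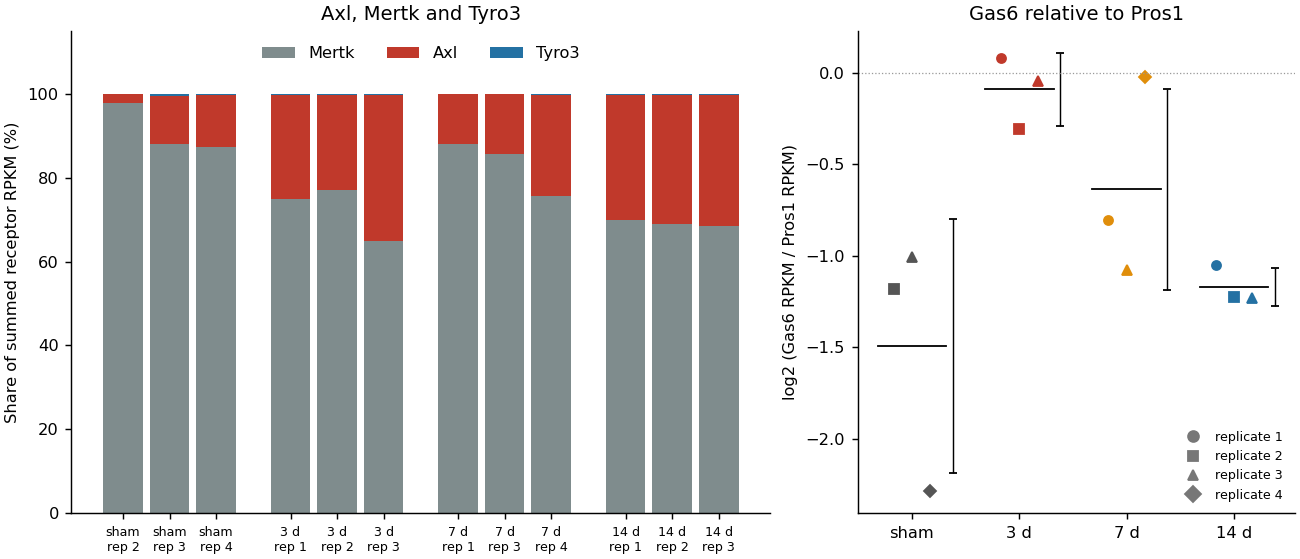
Left, the share of summed RPKM (%) that Axl, Mertk and Tyro3 each take in every library; right, the log2 ratio of Gas6 to Pros1 RPKM by group, with the mean and SD of 3 libraries. The Axl share is 2.14% to 12.6% in sham and 30.1% to 31.4% at 14 days, and the ligand ratio is highest at 3 days.

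The ligands moved differently from each other. Gas6, the ligand of all TAM receptors (chr8:13465374-13494490, minus strand; ENSMUSG00000031451), was read at 64.0, 56.0 and 26.6 CPM in sham and at 95.2, 65.1 and 67.5 at 3 days. It was at 82.5, 64.3 and 92.1 CPM at 7 days and at 40.5, 44.6 and 38.8 at 14 days. The 3-day and 7-day libraries were above all sham libraries, the lowest of them narrowly, and the 14-day libraries lay inside the sham range and below every 3-day and 7-day library. Gas6 was called in the test of any difference (adjusted p = 0.0346, edgeR quasi-likelihood test), a call that ended in 11 of 20 alternatives, among them leaving out any 3-day or 14-day library. In the fit of all 12 libraries no pair of groups was called: the changes were 0.62 ± 0.27 at 3 days, 0.70 ± 0.27 after 7 days and -0.25 ± 0.27 at 14 days against sham (adjusted p = 0.116, 0.115 and 0.597, edgeR), and -0.95 ± 0.27 from 7 to 14 days (0.0781). Without sham replicate 2 edgeR called the rise at 3 days (0.84, adjusted p = 0.0489) and at 7 days (0.93, 0.0377), as it did with no filter on low counts (0.0481 and 0.0296). DESeq2 called the fall from 7 to 14 days (adjusted p = 0.033) and from 3 to 14 days (0.0324), and edgeR called both without sham replicate 2 (0.035 and 0.0389) or 4 (0.00506 and 0.00691). Gas6 overlaps Tmem255b on the other strand, which had 0 to 11 counts.

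Protein S, a plasma anticoagulant cofactor that macrophages also make, is encoded by Pros1 (chr16:62854307-62929346, plus strand; ENSMUSG00000022912; promoter shown above). Its level was 233, 181 and 208 CPM in sham, 144, 129 and 112 at 3 days, 231, 218 and 150 at 7 days and 135, 168 and 146 at 14 days. All 3-day and 14-day libraries were below sham, and the 7-day libraries overlapped sham. The fall at 3 days was 0.69 on the log2 scale (SE 0.19, adjusted p = 0.0169, edgeR quasi-likelihood test). It was not called without 3-day replicate 2 (adjusted p = 0.0537) or 3-day replicate 3 (0.0779). The 14-day change was -0.48 ± 0.18 (adjusted p = 0.118, edgeR) and the 7-day change -0.06 ± 0.18, the latter 0.03 without sham replicate 2 and 0.08 without 7-day replicate 4.

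Set against each other within a library, Gas6 came nearest to Pros1 at 3 days. The log2 ratio of their RPKM was -1.49 ± 0.69 (SD, n = 3) in sham, -0.09 ± 0.20 at 3 days, -0.64 ± 0.55 after 7 days and -1.17 ± 0.10 at 14 days. It differed among the 4 groups (p = 0.0171, exact permutation test; 0.0171 adjusted for the 2 ratios). Against sham the exact permutation p was 0.1 at 3 days, 0.2 after 7 days and 0.9 at 14 days. The differences from sham were 1.404, 0.86 and 0.32 in that order, and 1.01, 0.46 and -0.07 without sham replicate 4, so that the small 14-day difference changed sign.

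Mfge8, the secreted bridge from phosphatidylserine to integrins, is a low-count gene in these nuclei (4 to 53 counts; chr7:79133768-79149060, minus strand). Sham replicates 2, 3 and 4 held 0.61, 2.06 and 4.20 CPM. The injured libraries lay between 3.74 and 5.38 CPM, with the 14-day libraries (4.67, 5.38 and 4.90) all above sham and the other times overlapping sham replicate 4. The changes were 1.04 ± 0.51, 0.98 ± 0.51 and 1.21 ± 0.51 at 3, 7 and 14 days (adjusted p = 0.162, 0.241 and 0.153, edgeR quasi-likelihood test). Without sham replicate 4, the library with the highest astrocyte and fibroblast marker sums, they were called at 3 days (1.79, adjusted p = 0.0198, edgeR) and at 14 days (1.96, 0.0173). The sham libraries then left held 4 and 9 counts, so these sizes are imprecise. The 7-day change was not called in any of 20 alternatives. Any part of astrocytes or fibroblasts in the Mfge8 level was not tested.

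Megf10, the engulfment receptor of astrocytes, had 12 to 137 counts per library (ENSMUSG00000024593). Sham replicates 2, 3 and 4 held 6.66, 13.5 and 24.6 CPM. The level was 10.3, 7.74 and 13.2 CPM at 3 days, 2.51, 3.52 and 6.15 at 7 days and 9.34, 7.25 and 8.24 at 14 days. All 7-day libraries were below sham, the highest of them narrowly, and the other times overlapped sham. The 7-day fall of 1.82 (log2, SE 0.45) was called (adjusted p = 0.0223, edgeR quasi-likelihood test). It was not called without sham replicate 4 (-1.26, adjusted p = 0.0749, edgeR), without 7-day replicate 1 (0.091) or 3 (0.0621), in a fit of those groups alone (0.111), or by limma on log2(RPKM + 1) (0.0634). At 3 days the change was -0.49 ± 0.42 and at 14 days -0.82 ± 0.43, neither called, and the 3-day change was 0.04 without sham replicate 4.

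Markers of astrocytes and of oligodendrocyte precursors stood beside Megf10, and their part in its level was not tested. Among the sham libraries the order of the astrocyte sum was the order of Megf10, with sham replicate 4 highest in both. The order was the same for the oligodendrocyte sum (911, 1694 and 1784 CPM) and the fibroblast and pericyte sum. Sums of the other cell types ran in a different order, among them that of oligodendrocyte precursors (77.0, 69.3 and 179 CPM). Nor was the order particular to Megf10, since Axl and Mfge8 had it too in sham. All 10 astrocyte markers had counts in every library. At 7 days, where 4.67% of all tested genes fell, 2 of 10 fell and the astrocyte sum was 1605 to 2024 CPM, inside the sham range. At 3 days 2 of 10 rose and 0 fell, and at 14 days 4 rose and 0 fell (10.9% and 5.02% of all tested genes rose). Megf10 changed by -0.49 and -0.82 at those times, neither called. Of 5 markers of oligodendrocyte precursors 2 fell at 7 days, and their sum was 36.7 to 52.1 CPM there, against 69.3 to 179 in sham, 64.8 to 123 at 3 days and 104 to 110 at 14 days.

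**Figure D4:**
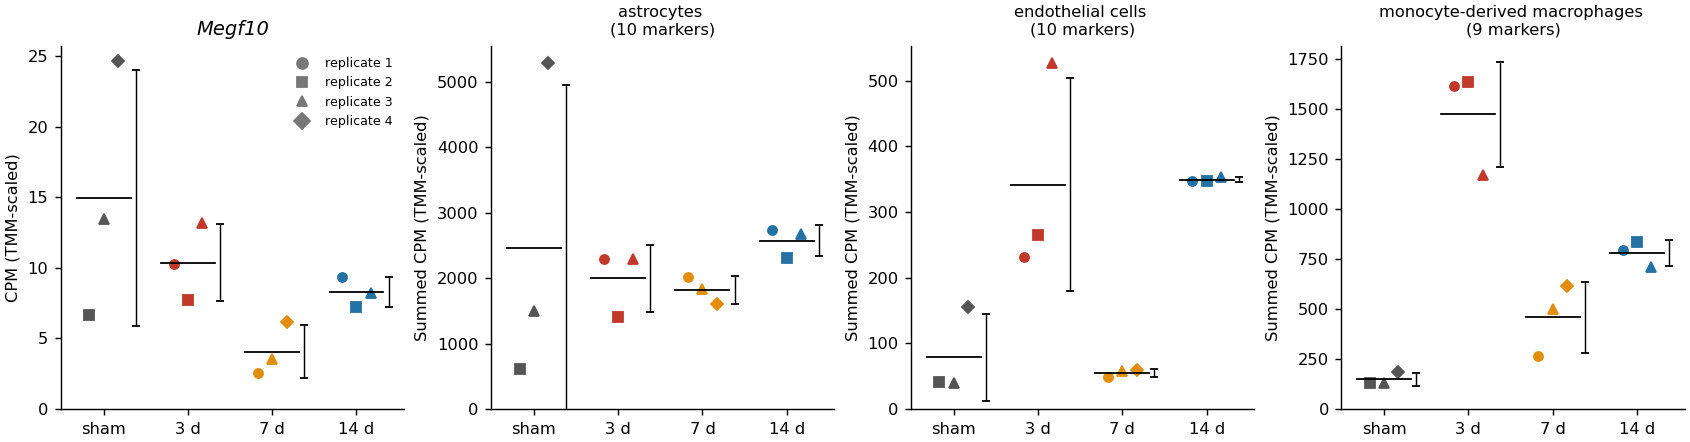
Megf10 in TMM-scaled CPM and the summed CPM of markers of astrocytes, endothelial cells and monocyte-derived macrophages in the 12 libraries by group, with the mean and SD of 3 libraries; the SD bar of the sham astrocyte sum is truncated at 0 by the axis. Sham replicate 4 is highest of its group in all 4 panels, and the endothelial sum is 231 to 528 at 3 days but 48.2 to 59.8 at 7 days.

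Elmo1, the cytosolic adaptor that carries engulfment signals to Rac (chr13:20090596-20608353, plus strand; ENSMUSG00000041112), was abundant and fell after injury. Its level was 1102, 974 and 1280 CPM in sham and 563, 586 and 527 at 3 days. It was 995, 778 and 582 CPM at 7 days and 536, 568 and 552 at 14 days. The 3-day and 14-day libraries were tightly grouped and all below sham, whereas the 7-day libraries spread from near the 14-day level to within the sham range. The fall was 1.00 (SE 0.18) on the log2 scale at 3 days (adjusted p = 0.00164, edgeR quasi-likelihood test) and 1.02 (SE 0.18) at 14 days (0.00311). The 7-day change of -0.51 ± 0.18 was not called (adjusted p = 0.0856, edgeR), and was called by DESeq2 (0.0458) and without sham replicate 3 (0.0497) or 7-day replicate 1 (0.0389). Noncoding genes annotated within the Elmo1 span, among them the antisense gene Gm32036, were not found by symbol among the deposited counts, so their levels could not be read.

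The calls for Axl at each time and for Elmo1 at 3 and 14 days held in all 21 alternatives. Microglial markers fell beside Elmo1: 4, 0 and 3 of 10 at 3, 7 and 14 days. Of all tested genes 9.17%, 4.67% and 4.79% fell at those times, which is the background to each marker count here. The microglial sum was 4985 to 6392 CPM in sham, 3328 to 3969 at 3 days, 4272 to 5600 at 7 days and 3671 to 4505 at 14 days. Of 10 neuronal markers 8, 6 and 3 fell at 3, 7 and 14 days. Their sum was 2927 to 4503 CPM in sham, 1880 to 2464 at 3 days, 1715 to 1877 at 7 days and at most 1857 at 14 days. The neuronal sum thus stayed below its sham range at each time, although fewer of its markers were called at 14 days. Of 7 markers of border-associated macrophages 3 fell at 3 days and 5 fell at 14 days. At 7 days, where 4.61% of all tested genes rose, 1 of these markers rose and 1 fell. Their sum was 398 to 872 CPM in sham, 150 to 296 at 3 days, 248 to 577 at 7 days and 166 to 293 at 14 days. The part of these cell types in the Elmo1 and Pros1 levels was not tested.

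Between times, 1 of the 8 genes was called from 3 to 7 days, where 13.4% of all tested genes were (5.85% up and 7.52% down). This was Pros1, which rose by 0.64 ± 0.18 (adjusted p = 0.034, edgeR quasi-likelihood test). The call ended in 10 of 21 alternatives, with adjusted p-values from 0.0504 to 0.16, on leaving out any of the 3-day and 14-day libraries or 7-day replicate 1 or 3 among them. From 3 to 7 days edgeR also called Megf10 without sham replicate 2 (-1.30, adjusted p = 0.0232) or 4 (-1.30, 0.019), and Elmo1 without sham replicate 4 (0.51, 0.0315). From 7 to 14 days, where 2.19% of genes were called (1.35% up and 0.835% down), edgeR called 0 of 8, with 5 below an unadjusted p of 0.05; DESeq2 called 1. From 3 to 14 days, where 7.31% were called (2.17% up and 5.14% down), edgeR called 0 of 8, with 1 below an unadjusted p of 0.05, and DESeq2 called 1; in both cases this was Gas6. Without overlap between the libraries were Mertk, Pros1 and Megf10 from 3 to 7 days (3 of 8, where 39.7% of all tested genes did not overlap). They were Axl, Mertk, Gas6, Mfge8, Megf10 and Elmo1 from 7 to 14 days (6 of 8, where 30.7% did not), and Tyro3 and Gas6 from 3 to 14 days (2 of 8, where 43.1% did not). Mertk and Elmo1 stood near their 3-day levels at 14 days (log2 differences of -0.01 ± 0.30 and -0.02 ± 0.18).

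Beyond these genes, 86 of 88 other genes of apoptotic cell clearance in 5 lists could be tested. Of these, 23 rose and 2 fell at 3 days, where 10.9% and 9.17% of all tested genes did. At 7 days 10 rose and 1 fell (4.61% and 4.67% of all tested genes), and at 14 days 14 rose and 4 fell (5.02% and 4.79%). The same shares are the background to the counts of each list below. Because the lists were chosen with earlier results of these data known, an excess over these shares describes them and is no test. The 7-day count of 11 was 19 without sham replicate 2, and the 14-day count of 18 was 10 without 14-day replicate 2. Their median log2 change was 0.14, 0.23 and 0.22, beside -0.03, 0.01 and -0.05 over all tested genes. Genes named below are those with the smallest adjusted p in the test of any difference; Edil3, Cd300a, Lgals3, C1qc, Rhog and Panx1 were added after their values were seen.

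Among 24 other phosphatidylserine receptors and bridging proteins, 8 rose and 2 fell at 3 days (20.0% of all tested genes were called), 4 rose and 1 fell at 7 days (9.28%), and 5 rose and 2 fell at 14 days (9.82%). Cd300lf, an inhibitory lipid receptor of myeloid cells, was at 12.04 to 15.8 CPM in sham and at 182, 261 and 194 at 3 days, a log2 rise of 3.93 ± 0.22 (adjusted p = 8.65e-08, edgeR quasi-likelihood test). It remained called at 7 days (3.25 ± 0.21) and 14 days (3.15 ± 0.21), as did its relative Cd300lb (1.91 ± 0.26, 2.14 ± 0.26 and 2.42 ± 0.26 at 3, 7 and 14 days). Thbs1, the matrix protein thrombospondin, was at 2.88 to 5.49 CPM in sham, at 234, 243 and 104 at 3 days and at 9.01 to 20.4 in the later libraries. Lgals3, a lectin of phagocytes, rose at all times (2.39 ± 0.41, 3.11 ± 0.41 and 2.51 ± 0.42), and the complement gene C1qc rose at 14 days (0.86 ± 0.22).

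The fallers of that list were Edil3, an integrin-binding bridge, at all times (-0.93 ± 0.23, -1.62 ± 0.24 and -0.97 ± 0.24), Cd300a, a phosphatidylserine receptor, at 3 days (-0.82 ± 0.16), and Stab1 at 14 days. Stab1, a scavenger receptor for phosphatidylserine, changed sign: from 505 to 516 CPM in sham it rose to 755, 858 and 791 at 3 days (0.65 ± 0.14, adjusted p = 0.00553, edgeR) and was at 262, 245 and 288 at 14 days (-0.95 ± 0.14, 0.000968). No 3-day or 14-day library overlapped the sham range. The border-associated macrophage sum given beside Elmo1 was below its sham range at both of those times, and its part in the Stab1 level was not tested. All called changes of Cd300lf, Cd300lb and Stab1 against sham held in all 21 alternatives.

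Of 18 engulfment signalling genes, Elmo2 and Rhog rose at 3 days, Vav3 and Trio fell at 14 days, and 0 were called at 7 days by edgeR, where 4 had an unadjusted p below 0.05 and DESeq2 also called 0. Elmo2, the paralog of Elmo1, was at 60.8 to 64.4 CPM in sham and at 161, 128 and 132 at 3 days, above every library of the other groups. Its rise was 1.17 ± 0.20 (adjusted p = 0.000994, edgeR quasi-likelihood test), beside the fall of Elmo1 by 1.00 in the same libraries. At 7 and 14 days Elmo2 was 0.22 ± 0.20 and 0.18 ± 0.20 from sham and not called. Vav3, a Rac exchange factor, was at 6.68 to 8.44 CPM at 14 days against 13.8 to 24.1 in sham (-1.13 ± 0.27, adjusted p = 0.0165, edgeR), and Trio, another, was at 278 to 323 against 398 to 537 (-0.66 ± 0.17, 0.0249). The Vav3 and Trio calls ended in 6 and 8 of 21 alternatives, leaving out any 14-day library among them.

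Of 12 genes of attraction and display signals, P2ry2, S1pr1 and Gpr132 rose at 3 days, P2ry2 and Gpr132 at 7 days, and P2ry2, S1pr1 and Panx1 at 14 days. P2ry2, a receptor for nucleotides that dying cells release, had 1 count over the 3 sham libraries and 3.36 to 5.47 CPM at 3 days, 1.89 to 2.64 at 7 days and 3.04 to 3.79 at 14 days. The 7-day call of Gpr132 ended in 5 of 19 alternatives, namely the replicate block and leaving out sham replicate 3 or 4 or 7-day replicate 1 or 3. S1pr1, a sphingolipid receptor that is also abundant in endothelium, rose at 3 days (1.45 ± 0.28) and 14 days (1.36 ± 0.28) and not at 7 days (0.31 ± 0.28), the times at which the endothelial marker sum was above and within its sham range; the part of endothelial RNA was not tested.

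Of 21 genes of phagosome maturation and cargo handling, 8 rose at 3 days, 3 after 7 days and 6 at 14 days. Abca1, which exports cholesterol taken up with engulfed cells and myelin, was at 283 to 296 CPM in sham and at 791 to 1293 CPM in the injured libraries. The partner exporter Abcg1 was at 14.4 to 20.3 CPM in sham, at 53.6 to 57.9 at 3 days, 58.0 to 116 at 7 days and 89.1 to 101 at 14 days. Atg7, which conjugates autophagy proteins, rose by 0.80 ± 0.17, 0.77 ± 0.17 and 0.84 ± 0.17. The lysosomal membrane protein gene Lamp1 was called at 14 days (0.66 ± 0.16). That call ended in 3 of 21 alternatives, in a fit of those groups alone and without sham replicate 3 or 14-day replicate 2. The 7-day call of Atg7 ended in 2 of 21, in a fit of those groups alone and without 7-day replicate 4.

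In a list of 11 genes of ligand carboxylation, receptor shedding and feedback, Socs3 rose at 3 days. At 14 days edgeR called 0 of the 11, with 3 below an unadjusted p of 0.05, and DESeq2 called 0. Socs3, a suppressor of cytokine signalling, was at 0.56 to 2.74 CPM in sham and at 17.8, 17.3 and 8.26 at 3 days (2.92 ± 0.52, adjusted p = 0.00155, edgeR quasi-likelihood test). At 7 and 14 days its changes against sham were 1.33 ± 0.53 and 0.69 ± 0.55, neither called.

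**Figure D5:**
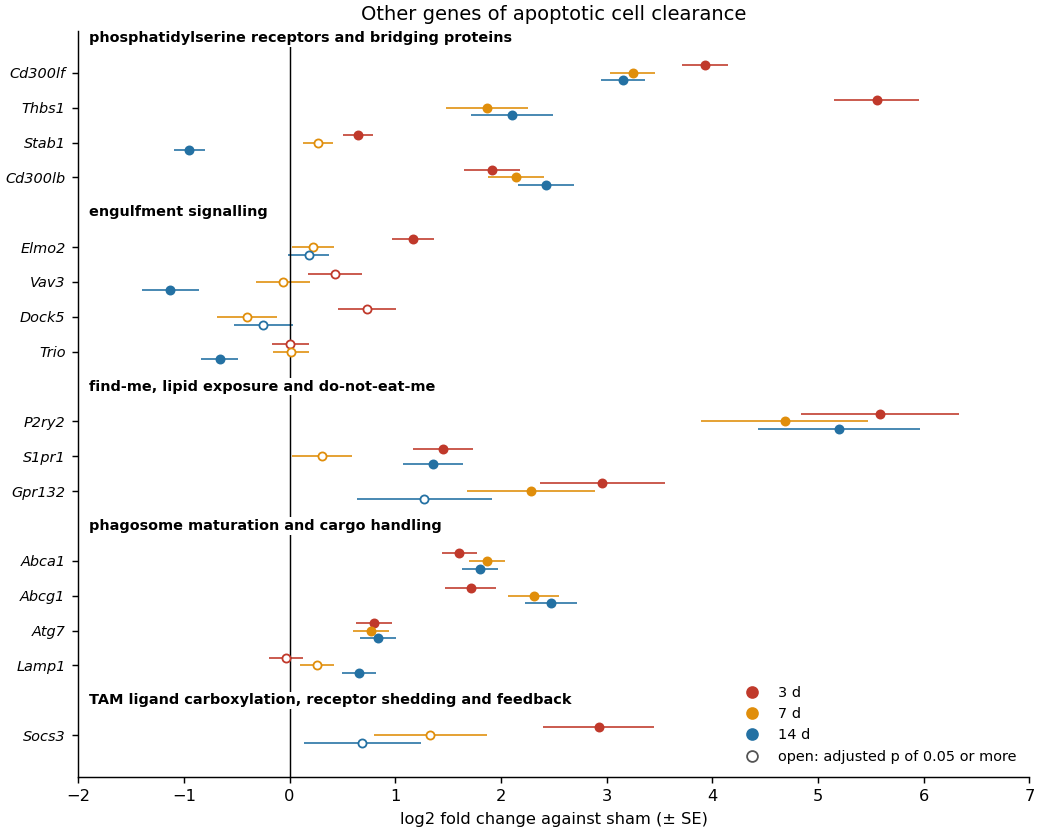
Log2 fold change against sham (horizontal axis) at 3, 7 and 14 days of the clearance genes named from each of the 5 lists, with bars of 1 SE; filled symbols are called by edgeR and open ones are not. Cd300lf, Cd300lb, Abca1 and Abcg1 are filled at all times, whereas Elmo2 and Socs3 are filled at 3 days alone and Stab1 lies on either side of 0; the points of P2ry2 rest on 1 count in sham and give no size.

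The genes whose levels ran most like those of Axl over the 12 libraries, among 9428 genes with a mean of at least 10 CPM, were Optn (Pearson r of log2 CPM 0.97), Cxcr4 (0.96) and Plxnc1 (0.96). For Elmo1 they were Hdgfrp3 (0.97), Tanc2 (0.97) and Pld1 (0.96), for Pros1 Lpcat2 (0.97), Rubcnl (0.95) and Ears2 (0.94), and for Mertk Kcnk6 (0.95), Bfar (0.94) and Naa35 (0.94). Gas6 ran most like Trmt10a (0.95), Ankrd13d (0.95) and Trafd1 (0.94), and Megf10 most like Meis2, Trpm3 and Nwd1 (0.94 each). Of the low-count genes, Mfge8 ran most like Sardh (0.94), Cd68 (0.93) and Dcstamp (0.93), and Tyro3 most like Adam11 (0.92), Polrmt (0.92) and Scap (0.90). Within the set, the pairs with the largest r were Axl with Mfge8 (0.87), Axl with Elmo1 (-0.86) and Pros1 with Elmo1 (0.85). These values describe libraries that share group, depth and scaling, and carry no test.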

How the data were processed

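For 12 nuclear RNA libraries the authors deposited whole read counts for each Ensembl gene, and RPKM; the RPKM equal count per gene length and library total (largest relative difference 6.5e-15). Counting used featureCounts 1.4.6-p3 with GRCm38 (mm10), per the submitters' processing notes. Aligner and strand setting were not given in the sources used here, so genes on opposite strands cannot be told apart. Per the labels' protocols, cDNA was made and amplified isothermally with single primers, which can widen the spread between libraries. Counts of genes passing filterByExpr (18451 of 49585 genes, 99.6% of counts) were TMM-scaled, and edgeR 4.0.16 (R 4.3.3) fitted the 4 groups by quasi-likelihood (common biological coefficient of variation 0.271); p-values were adjusted over all tested genes. SE is the log2 fold change over the square root of F. Ratios of RPKM were compared by exact permutation, and log2 CPM for correlations used a prior count of 2. The members and gene lists were chosen with earlier results of these data known. The genes named are the 8 members, up to 4 genes of each list with the smallest adjusted p in the test of any difference, and the 3 genes most correlated with each member, predicted genes passed over. A gene that meets this rule is not reported here. Replicates differed by more than counting noise (lowest ratio of chi-square to its degrees of freedom 4.76). Alternatives were other scalings, DESeq2 1.42.0, other filters, a replicate block, the 2 groups compared fitted alone, limma 3.58.1 on log2(RPKM + 1) or log2(RPKM + 0.1), and each library left out. Positions are from GENCODE and promoter windows from RefSeq. Figures were drawn with matplotlib 3.10.9.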

Additional observations from a re-analysis of the deposited data

Results flagged for a closer look

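For 11 of the genes named, the change against sham differed between times by the direct comparison of those times (edgeR quasi-likelihood test, Benjamini-Hochberg adjusted, log2 fold change ± SE). From 3 to 7 days Pros1 rose by 0.64 ± 0.18 (adjusted p = 0.034), and Cd300lf (-0.68 ± 0.19, 0.0275), Thbs1 (-3.69 ± 0.35, 0.000128), Elmo2 (-0.95 ± 0.20, 0.00753), Dock5 (-1.14 ± 0.28, 0.0171), S1pr1 (-1.14 ± 0.28, 0.0159) and Socs3 (-1.59 ± 0.47, 0.0369) fell. From 3 to 14 days Stab1 (-1.60 ± 0.15, 4.48e-05), Cd300lf (-0.77 ± 0.19, 0.0214), Thbs1 (-3.45 ± 0.35, 8.06e-05), Elmo2 (-0.99 ± 0.20, 0.00713), Dock5 (-0.98 ± 0.28, 0.0442), Vav3 (-1.56 ± 0.27, 0.00262), Trio (-0.67 ± 0.17, 0.0291) and Socs3 (-2.24 ± 0.49, 0.0134) fell, and Lamp1 rose (0.69 ± 0.16, 0.0173). From 7 to 14 days Stab1 fell (-1.22 ± 0.14, 0.00362). The differences of Stab1 and of Vav3 from 3 to 14 days, of Thbs1 at both later times and of Elmo2 from 3 to 7 days stayed called in all 21 alternatives. The call for Dock5 from 3 to 14 days ended in 11 of 21, for Trio from 3 to 14 days in 9, for Socs3 from 3 to 7 days in 8 and for Cd300lf from 3 to 7 days in 7.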

How the results depend on the processing

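The rises of Axl at 3, 7 and 14 days and the falls of Elmo1 at 3 and 14 days kept their direction and their call in all 21 alternatives. Both RPKM ratios still differed among the groups on leaving out any library (exact permutation p from 0.0013 to 0.0168 for Axl to Mertk and from 0.0102 to 0.0417 for Gas6 to Pros1). A ratio of counts differs from that of RPKM by a constant alone, so it is no separate check. Counts of called genes among the 8 moved with the setting, and the cause was not tested. At 7 days against sham the count of 2 was 1 in a fit of only those groups and with limma at either pseudocount. From 3 to 7 days the count of 1 was 2 with DESeq2, 3 with no filter on low counts and 3 with only the 2 groups, and 0 with limma at either pseudocount. From 7 to 14 days, where 0 were called, it was 1 with DESeq2, 2 with no filter and 3 with only the 2 groups, and from 3 to 14 days it was 1 in each of these. In the test of any difference limma called 2 of 8 at either pseudocount, against 5. Of the 86 pathway genes, 17 were called at 7 days with DESeq2, 19 with no filter and 6 with only the 2 groups (11 in the fit of all libraries), and 10 at 14 days with only the 2 groups (18).

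Leaving out 1 library at a time gave member counts of 1 to 4 at 7 days, 0 to 3 from 3 to 7 days, 0 to 2 from 7 to 14 days, 0 to 1 from 3 to 14 days and 2 to 6 in the test of any difference, and pathway counts of 10 to 19 at 7 days and 10 to 20 at 14 days. Some log2 changes that were not called took either sign in this way: Mertk at 3 days (-0.64 to 0.23) and 14 days (-0.63 to 0.24), Tyro3 at 3 days (-0.27 to 0.74), at 7 days (-0.91 to 0.070) and from 7 to 14 days (-0.33 to 0.15), Megf10 at 3 days (-0.89 to 0.042), and Pros1 at 7 days (-0.18 to 0.081). So did Gas6 (-0.059 to 0.27) and Mfge8 (-0.14 to 0.069) from 3 to 7 days, and Mertk (-0.038 to 0.11) and Elmo1 (-0.051 to 0.043) from 3 to 14 days. The last pair lay near 0 and turned positive also with median-ratio size factors (0.010 and 0.0016), library totals (0.075 and 0.066), DESeq2 (0.010 and 0.0017), limma at a pseudocount of 1 (0.082 and 0.067) and at 0.1 (0.082 and 0.068), and Mertk with only the 2 groups (0.00082).

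Same-numbered libraries of different groups did not deviate together (r from -0.30 to 0.07 over 13 pairs, 0 over 0.1; 2 of 12 libraries correlated best with their own number), so replicate numbers were taken as names only. With the replicate block the count among the 8 genes was 3 from 3 to 7 days and 4 from 7 to 14 days, Megf10 at 3 days was 0.041 and Mertk from 3 to 14 days 0.013, and 1608 of all tested genes were called from 7 to 14 days against 404 without it.

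Over all alternatives the counts of all tested genes called ran from 1817 to 4375 at 3 days (3695 in the fit of all libraries), 172 to 3065 at 7 days (1712), 701 to 2822 at 14 days (1811), 564 to 4539 from 3 to 7 days (2466), 1 to 1827 from 7 to 14 days (404), 435 to 4886 from 3 to 14 days (1349) and 2926 to 7064 for any difference (4872). The stricter filter left no value for Tyro3 and Mfge8. Both had 55 counts or fewer in each library, so depth limits the precision of their changes.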

Other observations

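Between the times after injury, more of the 86 other clearance genes fell than rose. All tested genes leaned the same way from 3 to 7 and from 3 to 14 days. From 3 to 7 days 3 of the 86 rose and 10 fell (13.4% of all tested genes were called, 5.85% up and 7.52% down). From 3 to 14 days 2 rose and 11 fell (7.31%, 2.17% up and 5.14% down). These calls are by the edgeR quasi-likelihood test, Benjamini-Hochberg adjusted. Cd36, a scavenger receptor for oxidised lipid and apoptotic cells, fell by 1.62 (log2, SE 0.45, adjusted p = 0.0279, edgeR) from 3 to 7 days. From 3 to 14 days it fell by 1.53 (SE 0.45), with an adjusted p just under 0.05 (edgeR). Of 10 endothelial markers 10 fell from 3 to 7 days and 1 from 3 to 14 days, and their part in the Cd36 level was not tested. Cd300a rose by 1.19 and 1.13 over the same intervals. From 7 to 14 days 2 of 86 were called, Stab1 and Ager, both of which fell (2.19% of all tested genes were called, 1.35% up and 0.835% down). The comparisons share libraries, and Cd36, Cd300a and Ager were named after their values were seen.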
